A study of Homo sapiens with 12 samples.

Results

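Amino acid transporters of the plasma membrane were followed in prostate cancer cells whose GALNT7 level had been lowered or raised. The set held 10 named genes, SLC7A5, SLC7A11, SLC3A2, SLC1A5, SLC1A4, SLC38A1, SLC38A2, SLC7A1, SLC6A9 and SLC43A1, out of the 59424 genes measured. They were chosen by name, with earlier results of these data known. Each was matched to an Ensembl identifier listed in both tables, and all 10 passed the filter on low values in both cell lines.

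GALNT7 encodes a glycosyltransferase that adds N-acetylgalactosamine in mucin-type O-glycosylation, and RNA-seq was used to ask which genes change with its level. CWR22RV1 (spelled CWR22Rv1 in the labels) is a prostate cancer cell line, and its cells carried a lentiviral control shRNA (shControl) or a lentiviral shRNA knockdown of GALNT7 (GALNT7 KD). DU145 is another prostate cancer cell line, and its cells carried a control Lenti-ORF construct (OE control) or a construct that overexpresses GALNT7 (GALNT7 OE). Each group was a stable transduced line with 3 libraries labelled as biological replicates, and whether a line was a pool of cells or a clone is not given in the sources used here. Nothing says that the replicates came from separate transductions, so p-values measure the spread between these libraries only.

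The libraries held 18364512 to 22264533 reads on genes for CWR22RV1 and 21628718 to 24356910 for DU145. The lines matched their labels by their defining markers, with the prostate gene KLK3 at 339 to 856 normalised counts (reads divided by a scale factor per library) for CWR22RV1 but at 0 for DU145, and KRT8, a keratin of epithelial cells, above 9990 in every library. Several of these markers differed between groups, and 6 of the 12 tested passed the limma threshold in knockdown (adjusted p under 0.05, log2 fold changes in brackets): KLK3 (1.05) and KLK2 (0.47) as higher and FOLH1 (-0.51), EPCAM (-0.71), KRT18 (-0.35) and VIM (-1.20) as lower. In overexpression EPCAM (0.62) and VIM (0.25) were higher and KRT7 (-0.27) and COL1A1 (-2.01) lower among the 7 tested. That is 57.1% of those tested, against 43.5% of all genes. Among markers of other cells, the collagen gene COL1A1 was at 287 to 419 in OE control and 53.6 to 154 in GALNT7 OE cells, and at 29.3 to 62.8 in CWR22RV1 cells. COL3A1 was at 24.7 or below, PTPRC (leukocytes) at 2.10 or below and PECAM1 (endothelium) at 49.3 or below in all 12 libraries. The part of these markers in the results was not tested. GALNT7 itself was at 862, 1042 and 1093 normalised counts in shControl and at 481, 501 and 400 in GALNT7 KD cells, and at 1051, 928 and 913 in OE control and 1988, 2221 and 2334 in GALNT7 OE cells. It was therefore lower in every knockdown library and higher in every overexpression library than in any control.

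Cells take up amino acids through carriers that share and exchange substrates. SLC7A5 (LAT1) imports leucine and other large neutral amino acids in exchange for intracellular amino acids, and SLC7A11 (xCT) imports cystine in exchange for glutamate. Both are light chains that reach the membrane bound to the heavy chain SLC3A2 (CD98). SLC1A5 (ASCT2) and SLC1A4 (ASCT1) exchange small neutral amino acids, with glutamine a substrate of SLC1A5, while SLC38A1 and SLC38A2 accumulate glutamine and other neutral amino acids with sodium. SLC7A1 carries arginine and lysine, SLC6A9 carries glycine, and SLC43A1 carries large neutral amino acids without exchange. Amino acid shortage activates the transcription factor ATF4, and oxidative stress activates NFE2L2, each of which is known to raise transcription of some of these carriers.

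Promoter windows are shown for 5 of the members that passed in a comparison below, each with a window that held a motif match, and for SLC38A2, beside SLC38A1 on the same chromosome. The choice favours windows with a match: 8 of all 16 windows of the members held any, against 5 of the 6 printed. Windows of SLC1A5, SLC6A9 and SLC43A1 and the other windows of SLC3A2, SLC1A4 and SLC38A1 are not printed. Each window spans 250 bases before to 50 after a RefSeq transcript start on GRCh38.p14 and is printed 5′ to 3′ on the strand of the gene. Capitals mark matches, on either strand, to TGATGNAA (the core of the element bound by C/EBP and ATF proteins), TGACNNNGC (the core of the antioxidant response element) or CACGTG (an E-box).

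SLC7A5, chr16:87869458-87869757, minus strand: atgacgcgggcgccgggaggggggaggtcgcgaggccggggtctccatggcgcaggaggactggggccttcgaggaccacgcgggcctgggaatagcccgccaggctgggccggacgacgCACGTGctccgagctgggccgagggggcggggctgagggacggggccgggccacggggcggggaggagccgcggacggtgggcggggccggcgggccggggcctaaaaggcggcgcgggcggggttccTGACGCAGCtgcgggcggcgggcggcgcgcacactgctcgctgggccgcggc
SLC3A2, chr11:62881449-62881748, plus strand: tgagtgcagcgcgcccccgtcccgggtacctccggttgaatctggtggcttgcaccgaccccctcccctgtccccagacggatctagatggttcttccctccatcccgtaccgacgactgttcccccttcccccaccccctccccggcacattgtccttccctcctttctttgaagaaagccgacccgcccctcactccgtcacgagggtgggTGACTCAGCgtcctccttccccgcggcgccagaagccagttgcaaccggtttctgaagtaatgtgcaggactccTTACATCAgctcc
SLC7A1, chr13:29595639-29595938, minus strand: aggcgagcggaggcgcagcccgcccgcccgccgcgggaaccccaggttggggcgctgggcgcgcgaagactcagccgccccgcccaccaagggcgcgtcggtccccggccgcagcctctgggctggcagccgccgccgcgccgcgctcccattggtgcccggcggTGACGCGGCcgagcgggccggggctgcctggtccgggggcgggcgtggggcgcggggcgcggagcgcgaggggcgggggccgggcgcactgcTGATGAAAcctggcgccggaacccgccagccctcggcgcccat
SLC1A4, chr2:64989149-64989448, plus strand: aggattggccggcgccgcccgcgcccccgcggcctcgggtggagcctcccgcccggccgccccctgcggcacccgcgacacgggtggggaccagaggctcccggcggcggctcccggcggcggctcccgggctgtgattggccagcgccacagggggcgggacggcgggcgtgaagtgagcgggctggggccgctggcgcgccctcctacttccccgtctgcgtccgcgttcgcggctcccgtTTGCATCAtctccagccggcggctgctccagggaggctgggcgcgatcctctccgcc
SLC38A1, chr12:46266467-46266766, minus strand: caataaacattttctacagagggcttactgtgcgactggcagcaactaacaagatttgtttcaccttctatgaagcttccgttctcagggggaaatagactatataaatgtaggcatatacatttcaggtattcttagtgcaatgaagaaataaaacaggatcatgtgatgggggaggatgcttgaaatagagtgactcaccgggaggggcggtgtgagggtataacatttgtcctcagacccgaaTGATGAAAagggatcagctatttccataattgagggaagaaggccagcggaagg
SLC38A2, chr12:46372724-46373023, minus strand: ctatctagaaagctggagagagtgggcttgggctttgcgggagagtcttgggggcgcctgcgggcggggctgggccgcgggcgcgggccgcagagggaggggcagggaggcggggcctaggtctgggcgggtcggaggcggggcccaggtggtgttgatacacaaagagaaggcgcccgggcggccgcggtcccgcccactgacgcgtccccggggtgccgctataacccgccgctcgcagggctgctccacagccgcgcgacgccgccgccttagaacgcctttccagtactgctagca

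The RefSeq table gave 16 windows, matched by symbol, for 9 of the 10 members (all but SLC7A11), since a gene can have several starts. Some starts lie inside the gene positions given below, among them those with a match in SLC1A5, SLC3A2, SLC1A4 and SLC38A1. SLC1A5 held no match at its outermost start, and which starts these cells used was not tested. TGATGNAA was in 5 of the 16 windows, each of a different member (SLC7A1, SLC3A2, SLC1A4, SLC1A5 and SLC38A1), and in 3.62% of all 35116 windows of the table. In SLC38A1 the match TGATGAAA began 4 bases before the start, in SLC7A1 the same letters began at base 8 after it, and SLC3A2 and SLC1A4 held TTACATCA and TTGCATCA, which read as the motif on the other strand. TGACNNNGC was in 4 of the 16 windows (SLC7A1, SLC7A5, SLC3A2 and SLC1A5) and in 13.3% of all windows. CACGTG was in 3 of the 16 (SLC7A5, SLC1A5 and SLC43A1) and in 7.26% of all windows. The window of SLC38A2 held none of the 3 motifs, and the gene outside its window was not searched. No matches of different motifs overlapped, and a match is a match of letters, not a measured site.

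The genes were read out of fits across all genes of each table with limma on log2(normalised count + 1), with Benjamini-Hochberg adjusted p-values and a threshold of 0.05. Changes below are log2 fold changes on that scale, which makes changes of genes with few reads look smaller, and "passed" means below the threshold. In GALNT7 KD cells 3 of the 10 transporters passed (2 lower, 1 higher), against 9.06% of all 17906 genes tested (3.79% lower and 5.28% higher). In GALNT7 OE cells 9 of the 10 passed (8 higher, 1 lower), against 43.5% of all 18705 genes tested (22.9% higher and 20.5% lower). With libraries scaled to their 75th percentile instead, 3380 genes passed as higher and 4736 as lower after overexpression in place of 4290 and 3842, and 7 of the 10 transporters passed as higher and 2 as lower. The median change of the 10 was -0.31 in knockdown and 0.51 in overexpression, and over all genes tested it was -0.0063 and -0.011. The libraries of the groups did not overlap for 6 of the 10 in knockdown, against 32.5% of all genes, and for 10 of the 10 in overexpression, against 55.3% of all genes. In bulk RNA a change in the share of cells that express a gene and a change in RNA per cell cannot be told apart.

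**Figure D1:**
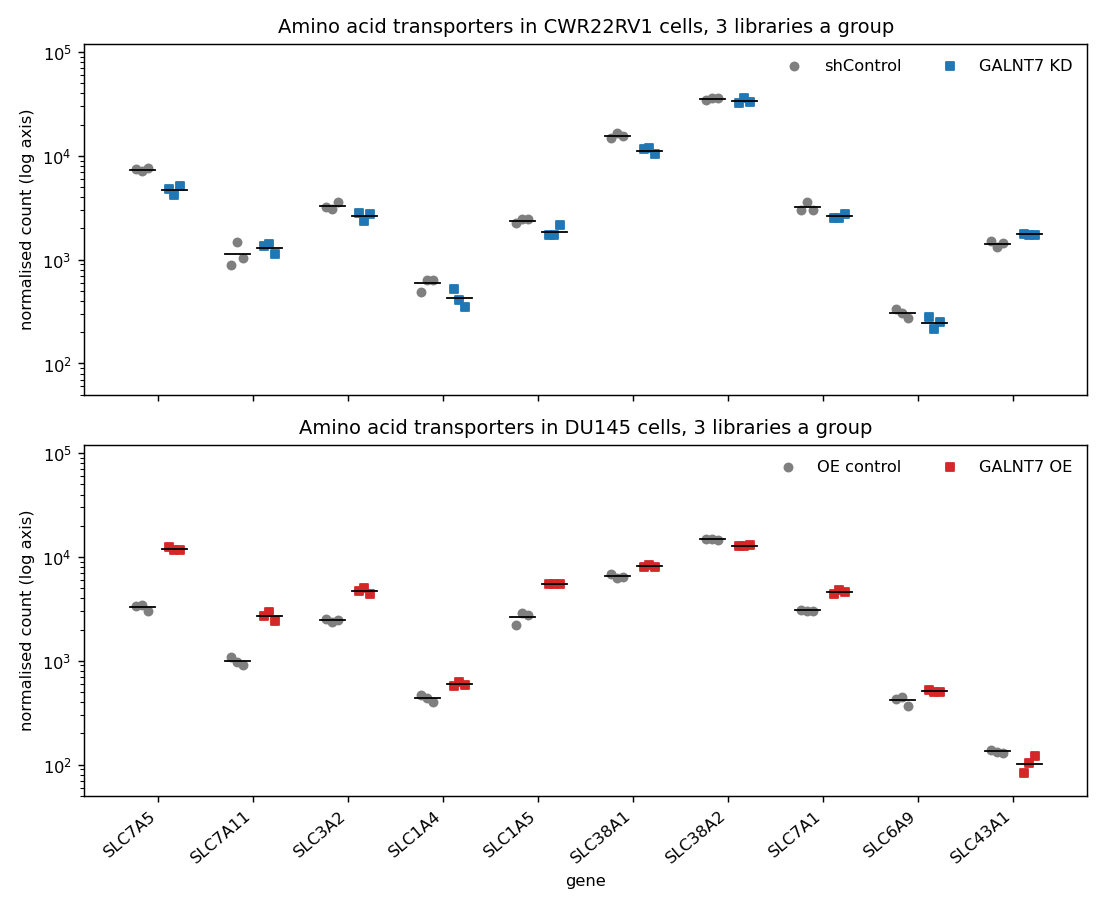
Normalised counts (log axis) of the 10 transporters in the 6 CWR22RV1 libraries and the 6 DU145 libraries, with a point for each library and a bar for the mean of its group of 3. The 2 cell lines were scaled separately, so heights compare within a panel only. SLC7A5 stands lower in every GALNT7 KD library than in shControl and higher in every GALNT7 OE library than in OE control, while SLC38A2 is the highest gene of the set in both control groups.

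SLC7A5, the leucine carrier, had the largest change of the set in both cell lines. It lies at chr16:87830023-87869488 on the minus strand of GRCh38. Its normalised counts were 7456, 7102 and 7599 in shControl and 4806, 4247 and 5143 in GALNT7 KD cells. All 3 knockdown libraries were below all 3 controls, a difference of -0.65 on the log2 scale (standard error, SE, 0.0745, limma adjusted p=0.0051). In DU145 cells SLC7A5 was at 3343, 3442 and 3035 in OE control and at 12502, 11778 and 11612 in GALNT7 OE cells. That was a 3.66-fold rise, or 1.87 on the log2 scale (SE 0.0585, limma adjusted p=3.2e-06), and ranked 220 from the top among the changes of 18705 genes. The pseudogene copies SLC7A5P1 and SLC7A5P2 held at most 9.73 and 0 normalised counts in any library, so few reads were assigned to them.

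SLC3A2, the heavy chain that both light chains need, lies at chr11:62856102-62888875 on the plus strand. It was at 3188, 3067 and 3617 in shControl and at 2820, 2336 and 2781 in GALNT7 KD cells. The groups did not overlap, but the difference of -0.32 (SE 0.0964) missed the threshold (limma adjusted p=0.092). It passed with DESeq2 on the recovered reads (DESeq2 adjusted p=0.024) and with centring on chromosome medians (limma adjusted p=0.041). In DU145 cells SLC3A2 was at 2544, 2357 and 2480 in OE control and at 4749, 4976 and 4430 in GALNT7 OE cells. It rose in all 3 libraries, by 0.94 on the log2 scale (SE 0.0586, limma adjusted p=4.0e-05), a 1.92-fold change.

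SLC7A11, the cystine carrier, lies at chr4:138164097-138242349 on the minus strand. In shControl cells it was at 891, 1495 and 1038, and in GALNT7 KD cells at 1366, 1424 and 1128. The groups overlapped because shControl replicate 2 was above all knockdown libraries, and the difference was 0.22 (SE 0.195, limma adjusted p=0.52), or 0.06 without shControl replicate 1 and 0.43 without shControl replicate 2. In DU145 cells the gene was at 1098, 973 and 918 in OE control and at 2692, 2956 and 2415 in GALNT7 OE cells. SLC7A11 rose 2.70-fold (log2 fold change 1.43, SE 0.0984, limma adjusted p=6.0e-05), with every overexpression library above every control. Its antisense partner SLC7A11-AS1 was at 8.24 or below in all 12 libraries.

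Ratios between partners cancel the scaling of a library, and 7 of them were compared between groups with a two-sided exact permutation test over libraries, for which 3 against 3 cannot give a p below 0.1. SLC7A5 relative to SLC3A2 was at log2 ratios of 1.23, 1.21 and 1.07 in shControl and 0.77, 0.86 and 0.89 in GALNT7 KD cells. The ratio of light to heavy chain was therefore lower in every knockdown library (difference -0.33, SE 0.0609, exact permutation p=0.1). After overexpression the same ratio went from 0.39, 0.55 and 0.29 to 1.40, 1.24 and 1.39, a difference of 0.93 (SE 0.0894, exact permutation p=0.1). SLC7A11 relative to SLC3A2 was also higher in every GALNT7 OE library, by 0.49 (SE 0.0747, exact permutation p=0.1), and in knockdown its groups overlapped (0.54, SE 0.312, exact permutation p=0.3). SLC7A5 relative to SLC7A11 differed by -0.87 in knockdown and by 0.44 in overexpression, with no overlap in either (SEs 0.304 and 0.104, exact permutation p=0.1 each). Over the 7 ratios of a comparison, a p of 0.1 became 0.14 after adjustment in knockdown and stayed 0.1 in overexpression.

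Summed per kilobase of exon, the 6 light chains of SLC3A2 (SLC7A5, SLC7A6, SLC7A7, SLC7A8, SLC7A10 and SLC7A11) were 2.90 ± 0.206 (SD, n=3) times the level of SLC3A2 in shControl and 2.56 ± 0.156 in GALNT7 KD cells. In OE control the sum was 2.11 ± 0.160 and in GALNT7 OE cells 3.36 ± 0.186 (SD, n=3) times that of SLC3A2. SLC7A5 made up 84.9% ± 2.28 of this light chain transcript in shControl and 76.5% ± 2.44 in GALNT7 KD cells, and 68.8% ± 0.929 in OE control and 82.4% ± 0.595 in GALNT7 OE cells (SD, n=3). The share of SLC7A11 was 6.46% ± 1.82 and 10.5% ± 1.91 in the CWR22RV1 groups and 10.3% ± 0.723 and 9.11% ± 0.905 in the DU145 groups (SD, n=3). SLC7A5 was thus the main light chain transcript in all 4 groups. Exon length counted all annotated exons of a gene, so levels per kilobase compared between genes depend on which transcripts were expressed.

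**Figure D2:**
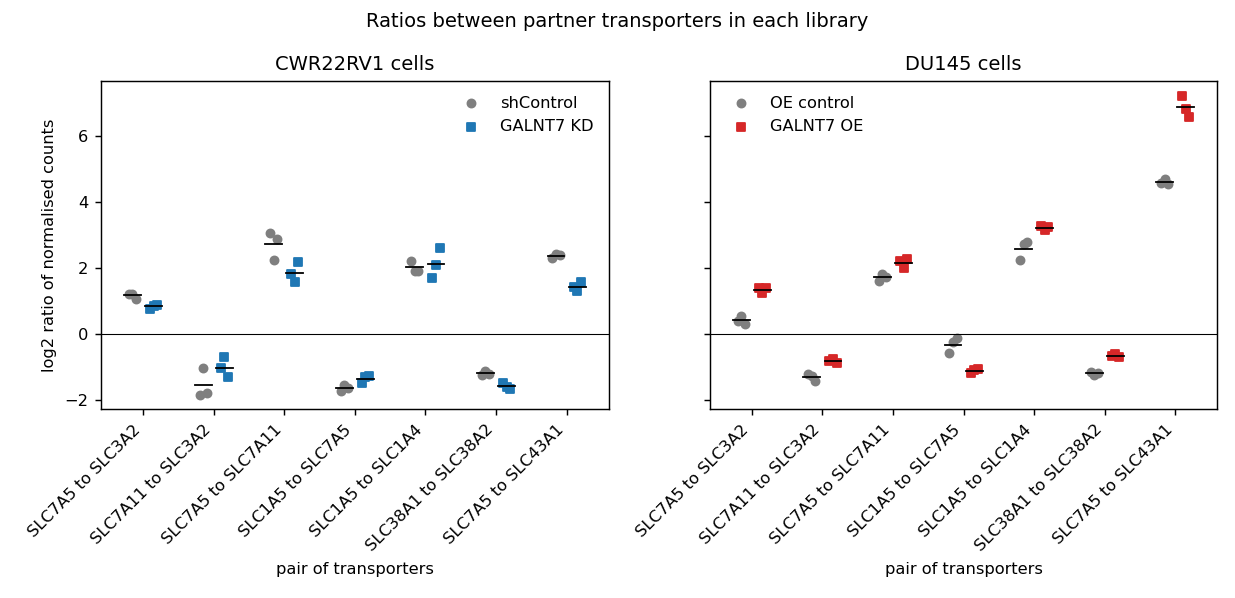
Log2 ratio of the normalised counts of 7 pairs of transporters in each library of CWR22RV1 cells (left) and DU145 cells (right), with bars for the mean of 3 libraries. SLC7A5 to SLC3A2 is lower in every GALNT7 KD library and higher in every GALNT7 OE library than in the controls, and only SLC7A11 to SLC3A2 and SLC1A5 to SLC1A4 in CWR22RV1 cells overlap between groups.

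SLC1A5, the glutamine exchanger, lies at chr19:46774883-46788594 on the minus strand. Its normalised counts were 2269, 2444 and 2444 in shControl and 1713, 1716 and 2146 in GALNT7 KD cells. Every knockdown library was below the controls, but the difference of -0.37 (SE 0.0987) did not pass (limma adjusted p=0.067). Without GALNT7 KD replicate 3, the highest of its group, it did (limma adjusted p=0.016), as it did with DESeq2 on the recovered reads (DESeq2 adjusted p=0.012). In DU145 cells SLC1A5 was at 2223, 2913 and 2762 in OE control and at 5506, 5469 and 5534 in GALNT7 OE cells. It rose 2.10-fold (log2 fold change 1.07, SE 0.0982, limma adjusted p=2.1e-04), and the 3 overexpression libraries lay closer together than the controls.

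SLC1A4, its paralogue for alanine, serine and cysteine, lies at chr2:64988477-65023865 on the plus strand. In shControl cells it was at 485, 645 and 645 and in GALNT7 KD cells at 524, 406 and 349. GALNT7 KD replicate 1 lay above shControl replicate 1, and the difference of -0.48 (SE 0.182) did not pass (limma adjusted p=0.16). In DU145 cells SLC1A4 was at 471, 439 and 399 in OE control and at 571, 617 and 583 in GALNT7 OE cells. It rose by 0.44 on the log2 scale in all 3 libraries (SE 0.0886, limma adjusted p=0.0068). Relative to SLC1A4, SLC1A5 was higher by 0.63 in GALNT7 OE cells (SE 0.178, exact permutation p=0.1), and relative to SLC7A5 it differed by -0.80 in the same cells (SE 0.141, exact permutation p=0.1). In knockdown SLC1A5 relative to SLC7A5 was higher by 0.28 (SE 0.0862, exact permutation p=0.1), and relative to SLC1A4 the groups overlapped (0.11, SE 0.283, exact permutation p=0.8).

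The sodium-coupled glutamine carriers SLC38A1 and SLC38A2 lie 88.2 kb apart on the minus strand of chromosome 12, and their levels differed in how they followed GALNT7. SLC38A1 (chr12:46183063-46270017) was at 14765, 16506 and 15537 in shControl and at 11595, 11830 and 10389 in GALNT7 KD cells. It fell by 0.47 on the log2 scale with no overlap (SE 0.0635, limma adjusted p=0.0087). SLC38A2 (chr12:46358189-46372867) was at 35001, 36169 and 35797 in shControl and at 32515, 36420 and 32800 in GALNT7 KD cells. GALNT7 KD replicate 2 was above every control, and the difference was -0.07 (SE 0.0469, limma adjusted p=0.37). SLC38A1 relative to SLC38A2 was lower in every knockdown library, at -1.49, -1.62 and -1.66 against -1.25, -1.13 and -1.20 in shControl (difference -0.40, SE 0.0617, exact permutation p=0.1).

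In DU145 cells SLC38A1 was at 6791, 6312 and 6442 in OE control and at 8023, 8391 and 7953 in GALNT7 OE cells, a rise of 0.32 (SE 0.0434, limma adjusted p=0.0012). SLC38A2 was at 15006, 14859 and 14575 in OE control and at 12791, 12766 and 12998 in GALNT7 OE cells. It was the only one of the 10 that passed as lower after overexpression in the fit used throughout (SLC43A1 is given below), with a change of -0.20 (SE 0.0289, limma adjusted p=0.0014) and no overlap. SLC38A1 relative to SLC38A2 was higher in every GALNT7 OE library, by 0.52 (SE 0.0403, exact permutation p=0.1).

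Chromosome 12 as a whole was lower in the knockdown libraries: its 922 tested genes had a median of -0.28 and quartiles of -0.50 and -0.088, with 202 passing as lower and 19 as higher. Relative to that median SLC38A1 was at -0.19, with 26.9% of the chromosome's genes lower than it, and SLC38A2 at 0.20, with 76.8% lower than it. With each gene centred on the median of its chromosome, SLC38A1 was at -0.26 and no longer passed (limma adjusted p=0.084), and SLC38A2 turned to 0.14 (limma adjusted p=0.24). The ratio of the pair is not touched by this centring. In DU145 cells the 940 tested genes of chromosome 12 had a median of 0.069, and relative to it SLC38A1 was at 0.25 and SLC38A2 at -0.27.

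**Figure D3:**
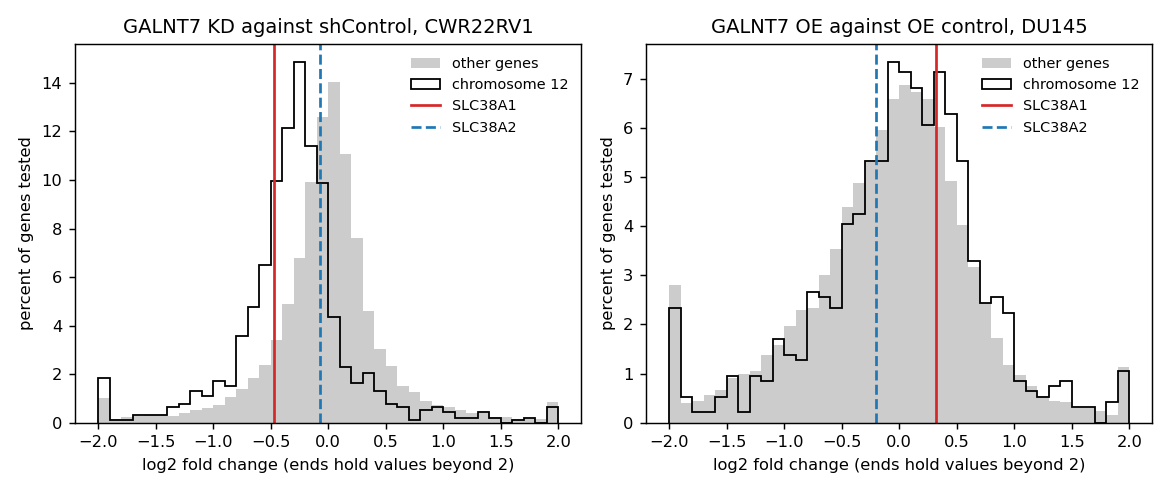
Distribution of log2 fold changes over the tested genes of chromosome 12 (outline) and over all other tested genes (grey), as percent of genes in bins, with SLC38A1 and SLC38A2 as vertical lines. In knockdown the outline is centred at -0.28 and the pair stands on opposite sides of it, and in overexpression it is centred at 0.069 with SLC38A1 above and SLC38A2 below.

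SLC7A1, the carrier of arginine and lysine, lies at chr13:29509410-29595688 on the minus strand. It was at 3008, 3606 and 2999 in shControl and at 2542, 2552 and 2753 in GALNT7 KD cells. The groups did not overlap and the difference of -0.29 (SE 0.0847) missed the threshold (limma adjusted p=0.083), which it passed with DESeq2 on the recovered reads (DESeq2 adjusted p=0.018). In DU145 cells SLC7A1 was at 3115, 3036 and 3006 in OE control and at 4350, 4801 and 4560 in GALNT7 OE cells. It rose in every library (log2 fold change 0.58, SE 0.050, limma adjusted p=1.6e-04).

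SLC6A9, the glycine carrier, lies at chr1:43991500-44031467 on the minus strand. It was at 337, 309 and 275 in shControl and at 279, 213 and 250 in GALNT7 KD cells, an overlapping difference of -0.31 (SE 0.138, limma adjusted p=0.21). In DU145 cells the gene was at 424, 452 and 367 in OE control and at 524, 497 and 505 in GALNT7 OE cells. It passed as higher with 0.30 (SE 0.0982, limma adjusted p=0.044), but the call was lost on leaving out each of the libraries in turn except OE control replicate 2 (limma adjusted p 0.038 to 0.11). CCDC24, which overlaps it on the other strand, was at 24.9% to 88.1% of the level of SLC6A9 in the 12 libraries, and the strand setting of the counting is not given in the sources used here.

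SLC43A1, which carries large neutral amino acids without exchange, lies at chr11:57484534-57515786 on the minus strand. It was at 1520, 1336 and 1438 in shControl and at 1776, 1737 and 1740 in GALNT7 KD cells. This made it the only one of the 10 that passed as higher after knockdown, at 0.29 (SE 0.0657, limma adjusted p=0.041), and the call was lost without any 1 of the 6 libraries (limma adjusted p 0.070 to 0.13). In DU145 cells the gene was at 139, 132 and 130 in OE control and at 83.2, 103 and 120 in GALNT7 OE cells. The groups did not overlap, with a difference of -0.40 (SE 0.161, limma adjusted p=0.084). Without GALNT7 OE replicate 3, the one closest to the controls, the limma adjusted p was 0.045, and with 75th percentile scaling it was 0.040. SLC7A5 relative to SLC43A1, which carry overlapping substrates, showed the widest shift of the 7 ratios in both cell lines: it differed by -0.94 in knockdown (SE 0.0875) and by 2.27 in overexpression (SE 0.189), with no overlap in either (exact permutation p=0.1 each).

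Across both cell lines, 8 of the 10 transporters had changes of opposite sign in knockdown and overexpression, against 47.8% of the 16124 genes tested in both. Of the 10, 7 were lower in knockdown and higher in overexpression by sign, as were 4040 of the 16124 genes. SLC7A5 and SLC38A1 passed in both with opposite signs, as did 2.88% of the 16124 genes. With chromosome centring the knockdown call of SLC38A1 was lost (limma adjusted p=0.084), and that of SLC7A5 was kept. The comparisons share no libraries, but they differ in cell line and vector as well as in the direction of the GALNT7 change.

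**Figure D4:**
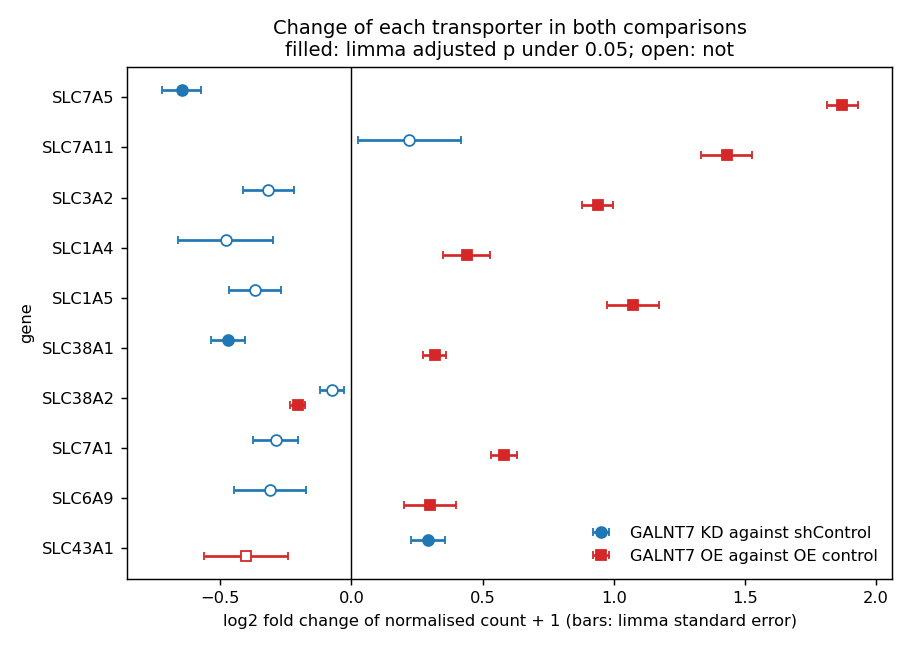
Log2 fold change of each transporter in GALNT7 KD against shControl (circles) and in GALNT7 OE against OE control (squares), with bars of 1 limma standard error (SE) and filled marks for an adjusted p under 0.05. SLC7A5 shows the largest change in both directions (-0.65 and 1.87), and SLC38A2 and SLC43A1 are the genes left of 0 in overexpression.

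The order of transcript levels, as normalised counts per kilobase of exon, also differed between groups. In shControl cells SLC38A2 was highest at 5401, followed by SLC38A1 at 1558 and SLC7A5 at 1557, whose libraries overlapped. SLC1A5 at 716 and SLC3A2 at 636 overlapped too, as did SLC7A1 at 417 and SLC43A1 at 405, and SLC7A11 at 118 and SLC1A4 at 85.2, with SLC6A9 lowest at 59.5. In OE control cells SLC38A2 was again highest at 2244, above SLC1A5 at 790, SLC7A5 at 690 and SLC38A1 at 651, neighbours whose libraries overlapped. Below them were SLC3A2 at 475, SLC7A1 at 397, SLC7A11 at 103, SLC6A9 at 80.3, SLC1A4 at 62.8 and SLC43A1 at 37.9, with no overlap between neighbours. In GALNT7 OE cells SLC7A5 was the highest of the set at 2521, above SLC38A2 at 1947 and SLC1A5 at 1652, with no overlap between these 3. Together the 10 transporters took 0.349% to 0.369% of the reads on genes in shControl and 0.303% to 0.321% in GALNT7 KD cells, and 0.154% to 0.158% in OE control and 0.223% to 0.233% in GALNT7 OE cells.

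Other genes of amino acid metabolism were read out of the same fits through 5 lists. These lists were chosen with earlier results of these data known, so their shares beside all genes only describe them. The lists also share genes: ASNS is in both the amino acid response and the enzyme list, and SESN2 in both the response and the mTORC1 list. Of 40 other amino acid carriers, 23 passed the filter on low values in CWR22RV1 cells and 21 in DU145 cells, so the counts cover expressed carriers only. In knockdown 3 were higher by limma and none lower (2 at an unadjusted p under 0.05, 0 with edgeR and 2 with DESeq2), 13% of those tested against 9.06% of all genes, with a median change of 0.14. They were the glutamate carrier SLC1A3, from 119 ± 7.29 to 480 ± 29.5 normalised counts (SD, n=3, log2 fold change 2.00, limma adjusted p=3.9e-04), the glutamine carrier SLC38A3 at 1.58 (limma adjusted p=0.034) and the vesicular glutamate carrier SLC17A7 at 0.74 (limma adjusted p=0.031). SLC1A3 and SLC17A7 passed as lower after overexpression, at -1.01 and -0.91 (limma adjusted p=0.014 and 0.022), and SLC38A3 did not pass there. Levels were low there: SLC1A3 averaged 66.6 normalised counts in OE control and 32.5 in GALNT7 OE cells, and SLC17A7 36.5 and 18.9. In overexpression 5 were higher and 7 lower (57.1% of those tested, against 43.5% of all genes), with a median of -0.27. SLC43A2, the paralogue of SLC43A1, fell from 1089 ± 11.4 to 566 ± 24.9 (SD, n=3, log2 fold change -0.94, limma adjusted p=6.0e-05), and SLC6A17 was at -1.35 (limma adjusted p=7.3e-04). SLC36A1, a proton-coupled carrier, and its family member SLC36A4 rose by 0.59 and 0.67 (limma adjusted p=0.013 and 6.3e-04).

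Of 24 regulators and targets of the amino acid response, 17 were higher and 3 lower after overexpression (83.3% passed, against 43.5% of all genes), with a median of 0.43. Asparagine synthetase (ASNS) rose from 964 ± 30.1 to 4549 ± 266 normalised counts (SD, n=3, log2 fold change 2.24, limma adjusted p=2.6e-06). The serine synthesis enzymes PSAT1 and PHGDH rose by 1.87 and 1.34 and the mitochondrial folate enzyme MTHFD2 by 1.48 (limma adjusted p=5.0e-07, 2.6e-05 and 3.8e-06). ATF4, the transcription factor of this response, rose from 7033 ± 41.3 to 9689 ± 189 (SD, n=3, log2 fold change 0.46, limma adjusted p=7.1e-05). In knockdown 1 was higher and 2 lower (12.5%, near the 9.06% of all genes), with a median of -0.035, and ATF4 was at 7127 ± 27.8 in shControl and 6184 ± 21.2 in GALNT7 KD cells (SD, n=3, log2 fold change -0.20, limma adjusted p=0.016). DDIT4 was at 0.47 and ATF5 at -0.46 (limma adjusted p=0.021 and 0.029). ASNS, PSAT1 and PHGDH were at 0.03, 0.08 and -0.055 in knockdown and did not pass.

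Of 20 enzymes of glutamine, glutamate, cysteine and glutathione metabolism, 14 were higher and 1 lower after overexpression. In all 75% passed, against 43.5% of all genes, with a median of 0.59. GCLM, the modifier subunit of the enzyme that begins glutathione synthesis, rose by 1.49 (limma adjusted p=8.6e-06), while GCLC, its catalytic subunit, fell from 6331 ± 148 to 4992 ± 276 (SD, n=3, log2 fold change -0.34, limma adjusted p=0.0017). The aspartate aminotransferase GOT1 rose by 1.14 and the CTP synthase CTPS1 by 1.04 (limma adjusted p=2.5e-05 and 5.9e-05). In knockdown 6 were higher and none lower by limma (1 at an unadjusted p under 0.05, 0 with edgeR and 1 with DESeq2), so that 30.0% passed against 9.06% of all genes, with a median of 0.089. GCLM was at 0.49 and GCLC at 0.40 (limma adjusted p=0.031 and 0.014), and GFPT1 of the hexosamine pathway was at 0.56 and PPAT of purine synthesis at 0.41 (limma adjusted p=0.014 and 0.039). GCLM thus passed as higher in both cell lines, and GCLC passed with opposite signs.

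Of 35 genes through which mTORC1, the growth kinase complex, senses amino acids, 8 were higher and 7 lower after overexpression and 1 was higher and 3 lower after knockdown, with medians of 0.079 and 0.048. KPTN fell by 1.58 on the log2 scale, the arginine sensor CASTOR1 by 0.95, the GTPase RRAGB by 0.88 and FLCN by 0.87 after overexpression (limma adjusted p=0.0017, 0.013, 0.0048 and 0.026). In knockdown ITFG2 was at -0.54, KICS2 at -0.51, SEH1L at -0.21 and RRAGD at 0.37 (limma adjusted p=0.013, 0.036, 0.049 and 0.022), and all 4 lost the call with chromosome centring. The lysosomal arginine carrier SLC38A9 was at 0.07 in knockdown and 0.18 in overexpression and did not pass (limma adjusted p=0.89 and 0.55). The share of the 35 that passed was 42.9% after overexpression, near the 43.5% of all genes, and 11.4% after knockdown, near 9.06% of all genes.

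Of 12 partners, ubiquitin ligases and transcription factors of the transporters, none passed in knockdown by limma (3 lower and 0 higher at an unadjusted p under 0.05, 0 with edgeR and 1 with DESeq2). In overexpression 5 of 11 tested were lower and none higher by limma (1 at an unadjusted p under 0.05, 0 with edgeR and 0 with DESeq2). That is 45.5%, against 20.5% of all genes that passed as lower and 43.5% that passed in either direction. The repressor BACH1 was at -0.99, CD44, which binds SLC7A11, at -0.63, MYC at -0.28 and BSG at -0.26 (limma adjusted p=0.0019, 3.3e-04, 0.0081 and 0.0012). NFE2L2 was at -0.15 in knockdown and -0.065 in overexpression and passed in neither (limma adjusted p=0.26 and 0.38). Of the 14 genes that the naming rule took from these lists in knockdown, 13 lost the threshold when at least 1 library was left out, with SLC1A3 the exception, and of the 19 in overexpression FLCN alone did.

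**Figure D5:**
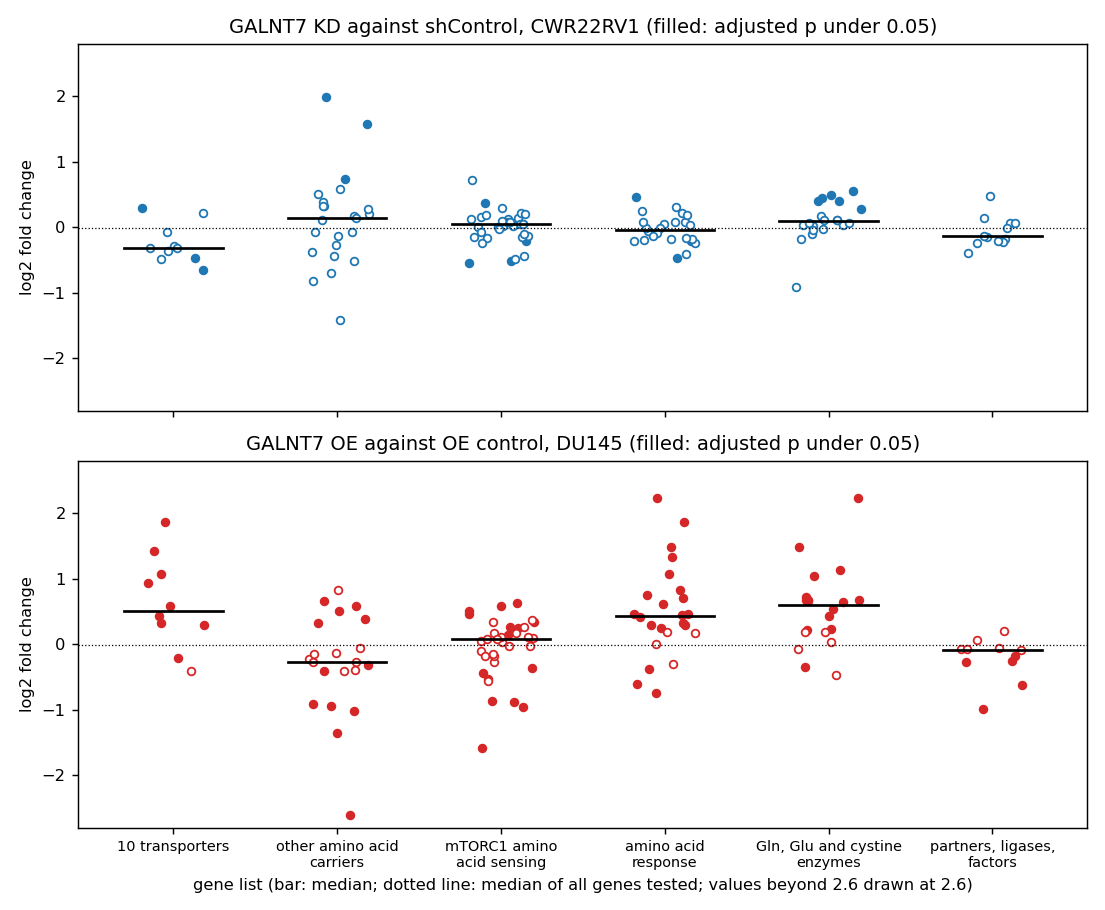
Log2 fold changes of the tested genes of 6 lists in GALNT7 KD against shControl (upper) and GALNT7 OE against OE control (lower), with filled points for an adjusted p under 0.05 and bars for the median of each list. In overexpression the medians of the 10 transporters (0.51), the amino acid response (0.43) and the enzymes (0.59) stand above 0 and that of the other carriers (-0.27) below, and in knockdown the 10 transporters have the lowest median (-0.31).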

How the data were processed

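RNA from CWR22RV1 and DU145 cells was sequenced with a stranded mRNA kit, with 3 libraries in each of 4 groups. The authors deposited normalised counts (a signal: the reads of a gene over the size factor of its library) for 59424 Ensembl genes, with 1 table per cell line. The submitters' processing notes name hg38, FastQC, Salmon, DESeq2 and R 3.5.3, and the annotation release and strand setting are not given in the sources used here. All but 2 DU145 libraries, whose scale factor was too near 1 to tell, were checked to hold whole multiples of 1 read (tolerance 0.01), and reads were recovered by that step in all 12. Depth limits low genes most, and the count test on those reads was an alternative. Levels were compared within a cell line only.

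Gene names, positions and exon lengths came from GENCODE release 29 (GRCh38), which holds 94.4% of the identifiers. Differences were tested across all genes whose normalised count averaged at least 5, using limma 3.58.1 (trended eBayes after lmFit; R 4.3.3) on log2(normalised count + 1), and Benjamini-Hochberg adjusted p-values were held to 0.05. Ratios were compared by exact permutation over libraries. The fit was tested on simulated data. The alternatives were pseudocounts of 0.5 and 5, no filter or a mean of at least 20, 75th percentile scaling, quantile normalisation, chromosome centring, a replicate block, each library left out, eBayes without trend, an adjusted p of 0.01, edgeR 4.0.16 and DESeq2 1.42.0.

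The members and lists were chosen with earlier results of these data known. Besides the members, GALNT7 and genes named for their role, the rule named at most 4 genes per list and comparison. These were the largest changes past the threshold among genes with a mean of at least 50 and no overlap of groups. The values of some genes covered by the rule or the lists are not reported here, although the counts include them. The 3 genes most like each of 4 members were also named.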

Additional observations from a re-analysis of the deposited data

How the results depend on the processing

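All 20 changes of the transporters kept their direction and their side of the threshold with pseudocounts of 0.5 and 5, with a mean of at least 20 and with edgeR. SLC38A2 in knockdown turned to 0.14 with chromosome centring. The 1 transporter that was higher in knockdown (SLC43A1) was no longer counted at an adjusted p of 0.01, without a filter, with 75th percentile scaling, quantile normalisation, chromosome centring, the replicate block or no trend, and with each library left out (0 in each). With DESeq2, 5 transporters were lower in knockdown in place of 2. After overexpression 7 were higher in place of 8 (SLC6A9 lost) under those same 7 settings, and 2 were lower in place of 1 with 75th percentile scaling, and 1 to 2 with a library left out. The ratio of SLC1A5 to SLC1A4 in knockdown was -0.13 without GALNT7 KD replicate 3 (range -0.13 to 0.33 over the libraries left out). Among all genes the knockdown calls numbered 392 at an adjusted p of 0.01, 996 without trend, 2600 with DESeq2 and 539 to 1336 with a library left out, against 1623, and the overexpression calls 5303 at an adjusted p of 0.01, against 8132.

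At an adjusted p of 0.01 the other carriers numbered 1 higher in knockdown and 2 higher and 3 lower in overexpression, the mTORC1 genes 0 higher and 0 lower in knockdown and 5 higher and 3 lower in overexpression, and the response genes and enzymes 0 higher and 0 lower in knockdown. With chromosome centring the mTORC1 genes were 0 higher and 0 lower in knockdown and 4 lower in overexpression, and 1 response gene was lower in knockdown. Without trend there were 0 higher mTORC1 genes, 0 lower response genes and 2 higher enzymes in knockdown, and 4 lower mTORC1 genes in overexpression. Without a filter 1 mTORC1 gene was lower in knockdown. In overexpression, 75th percentile scaling and quantile normalisation each gave 5 higher mTORC1 genes and 2 lower enzymes. DESeq2 in knockdown gave 2 lower other carriers, 2 higher mTORC1 genes, 3 higher response genes, 1 lower enzyme and 1 lower partner. With a library left out, the knockdown ranges were 1 to 2 higher and 0 to 1 lower other carriers, 0 to 1 higher and 0 to 2 lower mTORC1 genes, 0 to 2 higher and 0 to 2 lower response genes, and 1 to 5 higher and 0 to 1 lower enzymes. In overexpression they were 4 to 6 lower other carriers, 5 to 8 higher and 4 to 8 lower mTORC1 genes and 0 to 1 higher partners. The cause of these changes was not tested.

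The labels give same-numbered libraries only a number in common. The correlation of their deviations averaged 0.019 for CWR22RV1 and 0.034 for DU145, against -0.0096 and -0.017 between libraries of different numbers. In DU145 every same-numbered pair (0.0159 to 0.0432) lay above every other pair (-0.0447 to 0.00416). Whether same-numbered libraries were prepared together is not given in the sources used here. When the number entered as a replicate block, 1002 genes passed in knockdown and 7405 in overexpression. The block ended the calls of SLC43A1 in knockdown (limma adjusted p=0.066) and SLC6A9 in overexpression (limma adjusted p=0.071) and no other call of the transporters. With it the knockdown counts were 1 higher other carrier, 0 higher and 1 lower mTORC1 gene, 0 higher and 0 lower response genes and 3 higher enzymes.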

Other observations

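Over the 12 libraries, each cell line was centred on its own mean. This leaves the differences between groups in, so a high correlation can come from them alone. The genes whose log2 levels followed a transporter most closely were then sought among 11816 genes. For SLC7A5 they were RACGAP1, PGAM5 and WDR62 (Pearson r = 0.99 for each, with the libraries and groups shared by all points). For SLC1A5 they were CBFB (r = 0.98), SMG1P3 (r = 0.98) and C17orf53 (r = 0.98), and SMG1P3 is a pseudogene whose reads could be shared with its parent gene. For SLC7A11 they were MRPL19, PSME4 and WDHD1 (r = 0.98 for each). For SLC38A2 they were CTSH, AC093525.6 and RPL32P29 (r = 0.95, 0.94 and 0.94), and these 3 were at -1.01, -1.16 and -0.84 after overexpression.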
